A study of Mus musculus with 3 samples.

Results

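Cholesterol is built in animal cells from acetyl-CoA through the mevalonate pathway, and 8 genes of its synthesis and control were followed here in nuclei of mouse interscapular brown adipose tissue (BAT). They were chosen by name, with earlier results of these data known, out of 23041 to 23364 genes with a column in each of the 3 tables. They are the enzymes Hmgcs1, Pmvk, Idi1, Fdft1, Sqle and Lss, and the regulators Srebf2 and Insig1. No uptake receptor is among the 8, so uptake genes are given from a list of 46 genes of cholesterol handling. All mice were wild-type adult C57Bl6 animals, and the paper states that it used only males. The untreated library was made from the BAT of 20 pooled 8-week-old mice, and the denervated library (D-BAT) from 20 pooled 8-week-old mice at day 3 after the intercostal nerves of 1 lobe had been cut. The study's description of the denervated mice also names tamoxifen, which its description of the untreated mice does not, so denervation and tamoxifen cannot be told apart here. For the sham-operated library the labels give the operation, and its own age, day and pool were not given in the sources used here. The paper's general methods for its nuclei name 8-week-old mice. The paper uses sham operation both for separate mice and for the intact lobe of denervated mice, so which applies here is not known. The nuclei came from the floating fraction of digested tissue, which is rich in adipocytes and keeps fragments of the vasculature. Each condition was 1 library, so condition, pool and library cannot be told apart, no test between conditions could be made, and every interval below covers counting error only. The header of the denervated table carries a sample name with the letters KO, whereas the labels give that sample as WT. The sham table has no header.

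The pathway starts with HMG-CoA, which Hmgcs1 makes and from which mevalonate is formed. It runs through isoprenoid intermediates to squalene and closes the sterol rings at lanosterol. Cells set its rate through SREBP-2, the product of Srebf2: when sterols are plentiful, INSIG proteins hold SREBP-2 in the endoplasmic reticulum, and when sterols are scarce it moves to the nucleus and switches on nearly the whole pathway, together with Insig1 itself. Adipocytes store free cholesterol in and around the lipid droplet, and brown adipocytes (BAs) also make fatty acids under the related factor SREBP-1c.

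On the mouse genome (GRCm38, GENCODE vM21) the 8 genes lie apart from each other and all are protein coding. Hmgcs1 is at chr13:119690379-119708260 and Idi1 at chr13:8885501-8892451. Pmvk is at chr3:89454541-89469013, Insig1 at chr5:28071363-28078662 and Lss at chr10:76531588-76557138. Fdft1, the only member on the minus strand, is at chr14:63145150-63179578, and chromosome 15 holds Sqle at chr15:59315077-59331192 and Srebf2 at chr15:82147181-82205379. RefSeq promoter sequences (GRCm38.p6) were matched by symbol for 6 of the 8 genes. Sqle and Fdft1 were not part of the search. The upstream sequences of Hmgcs1, Insig1 and Srebf2 are shown because Hmgcs1 and Insig1 were high in adipocyte nuclei and Srebf2 was not. Each is on the plus strand, 5′ to 3′, and ends before the first transcribed base of either annotation, at chr13:119690101-119690350 for Hmgcs1, chr5:28071162-28071362 for Insig1 and chr15:82147019-82147180 for Srebf2. Capitals mark matches to the sterol regulatory element TCACNCCAC, to the CCAAT box bound by NF-Y, which reads ATTGG on the other strand, and to the E-box CACGTG.
Hmgcs1: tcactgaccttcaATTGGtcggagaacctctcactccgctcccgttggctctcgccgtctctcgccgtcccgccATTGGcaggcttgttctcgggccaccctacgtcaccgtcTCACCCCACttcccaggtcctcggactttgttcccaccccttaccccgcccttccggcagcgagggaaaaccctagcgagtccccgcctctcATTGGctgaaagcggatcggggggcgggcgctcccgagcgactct
Insig1: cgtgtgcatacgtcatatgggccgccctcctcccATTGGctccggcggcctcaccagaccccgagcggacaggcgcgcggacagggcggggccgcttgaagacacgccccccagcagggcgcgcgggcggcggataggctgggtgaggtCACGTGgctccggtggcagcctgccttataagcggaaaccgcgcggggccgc
Srebf2: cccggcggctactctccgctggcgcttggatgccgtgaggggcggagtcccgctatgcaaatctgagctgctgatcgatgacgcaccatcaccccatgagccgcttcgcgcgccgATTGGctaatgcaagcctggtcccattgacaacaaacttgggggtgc
Within the 250 bases before the RefSeq start, both strands were searched, and no match of one motif overlapped a match of another in these 3 sequences. The exact string TCACNCCAC was found in 1 of the 6 genes, Hmgcs1, at 137 bases before the start, against 1.05% of 32851 promoters. Variants of that string were not counted, so its absence does not show that a gene lacks a sterol regulatory element. A CCAAT box was found in all 6 genes searched, in 1 of the 2 promoters of Pmvk, and in 33.8% of promoters. The E-box was found in Insig1 alone among the 6, at 101 bases before the start, and in 6.02% of promoters. A match is a string of letters and does not show that a factor binds there.

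The 3 libraries held 13707 to 15822 barcodes and 9420030 to 14971579 unique molecular identifiers (UMIs, each counting 1 captured transcript). After filters and removal of doublets, 9551 to 11760 nuclei per library were kept, with median UMIs per nucleus of 978 (untreated), 748 (sham) and 684 (denervated). Nuclei were clustered in each library without the 46 pathway genes, and clusters were named from marker lists as BA-like, white adipocyte-like (WA-like), endothelial-like (EC-like), pericyte-like (PC-like) or immune-like. There were 4567 BA-like nuclei in the untreated, 3301 in the sham and 5055 in the denervated library. In each of their clusters 15 to 17 of the 17 markers on the brown adipocyte list were raised. That list also holds markers of adipocytes of either kind. WA-like nuclei numbered 127, 1085 and 920, and their clusters had 5, 5 and 6 of the 6 white adipocyte markers raised. They also had 13, 15 and 7 of the 17 on the brown adipocyte list raised, which are not all particular to brown adipocytes. EC-like nuclei numbered 4995, 5376 and 2196. The median depth of BA-like nuclei was 1820, 1413 and 888 UMIs in the same order. From 251 to 278 barcode numbers were shared between pairs of libraries.

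In BA-like nuclei Insig1, the sterol-sensing brake on SREBP-2, made up 1061 UMIs in each 1000000 UMIs (CPM) in the untreated library (95% Poisson interval 1039 to 1083, from 8847 UMIs), 424 CPM in the sham library (406 to 443) and 578 CPM in the denervated library (557 to 599). Thus the untreated library stood highest and the sham library lowest, with intervals that did not overlap. After every nucleus was thinned to 500 UMIs, 37.0% of untreated (exact binomial interval 35.6 to 38.5), 16.8% of sham (15.5 to 18.1) and 22.3% of denervated BA-like nuclei (21.0 to 23.5) held an Insig1 UMI. Thinning left out 144, 172 and 557 shallower nuclei. Without thinning these shares were 70.05%, 35.6% and 35.0%, so the sham and denervated libraries differed in the thinned shares and levels and not in the unthinned shares, which depend on depth. In EC-like nuclei thinned in the same way 7.56%, 2.58% and 5.19% held one, from median depths of 656, 510 and 357 UMIs. Thinning left out 1715, 2586 and 1637 EC-like nuclei, so that the denervated share rests on 559 of 2196, and without thinning the shares were 9.75%, 2.77% and 4.10%.

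Of the early enzymes, Hmgcs1 (HMG-CoA synthase) was at 160 CPM in untreated, 110 CPM in sham and 127 CPM in denervated BA-like nuclei. Pmvk, the kinase that adds the second phosphate to mevalonate, was at 135, 32.2 and 144 CPM in the same order. Idi1, which isomerizes the basic isoprene unit, was at 20.1, 7.03 and 20.3 CPM. Hmgcs1 was therefore highest in the untreated and lowest in the sham library, while Pmvk and Idi1 were level between the untreated and denervated libraries and low in the sham library.

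Of the late enzymes, Fdft1 (squalene synthase, the first step committed to sterols) was at 104 CPM in untreated, 179 CPM in sham and 72.0 CPM in denervated BA-like nuclei. Sqle, squalene epoxidase, a rate-limiting oxygen-dependent step, was at 34.4, 4.26 and 19.1 CPM. Lss, which closes the ring to lanosterol, was at 40.4, 20.9 and 31.5 CPM. Fdft1 was thus the member that stood highest in the sham library, where Sqle rested on 20 UMIs from 3301 nuclei. Srebf2 varied least, at 89.3 CPM (83.0 to 96.0) in untreated, 69.8 CPM (62.5 to 77.8) in sham and 83.8 CPM (76.0 to 92.1) in denervated BA-like nuclei. Summed over the 8 genes, BA-like nuclei held 1643 CPM (1616 to 1671) in the untreated, 847 CPM (821 to 874) in the sham and 1076 CPM (1048 to 1105) in the denervated library, and Insig1 supplied most UMIs of each sum.

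**Figure D1:**
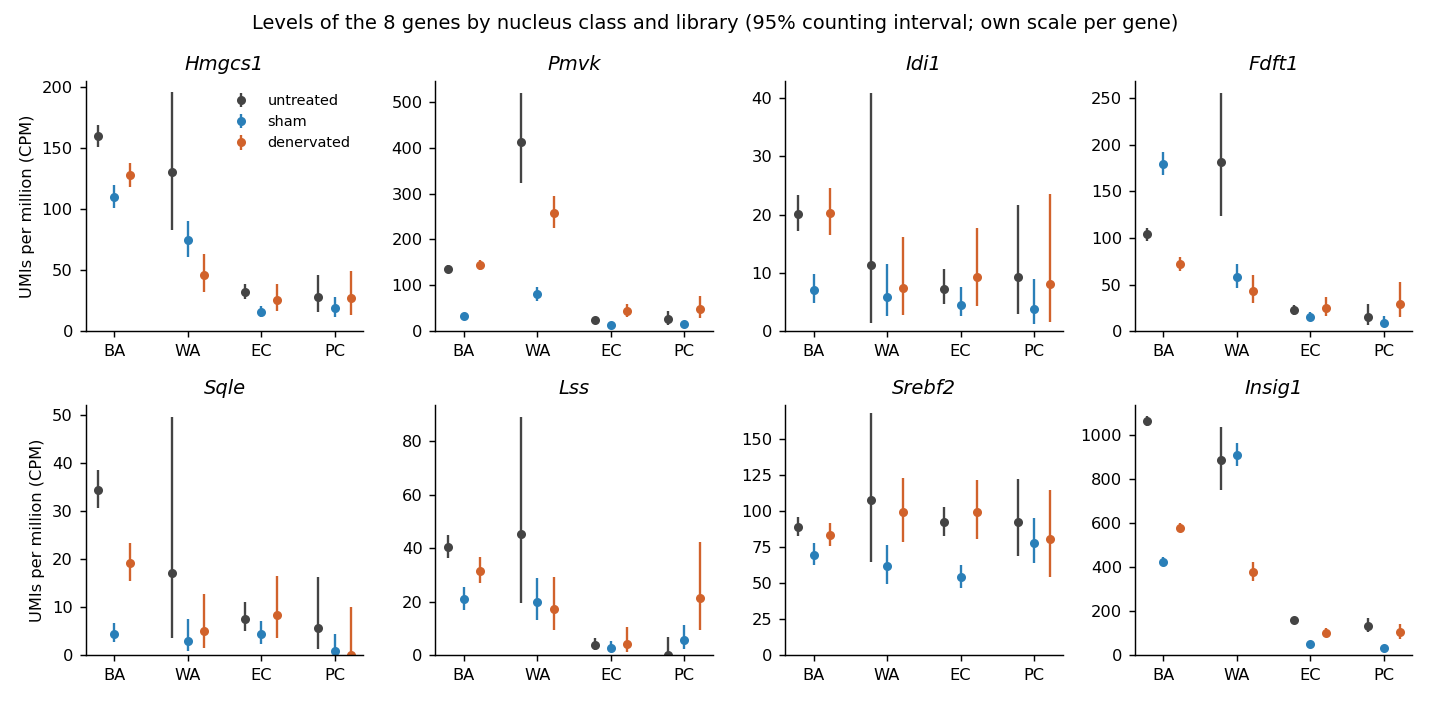
Levels (CPM, y axis, own scale for each gene) of the 8 genes in BA-like (BA), white adipocyte-like (WA), endothelial-like (EC) and pericyte-like (PC) nuclei, with 1 color per library and bars for 95% Poisson intervals. Insig1 in BA is at 1061 CPM in the untreated and 424 CPM in the sham library, whereas Srebf2 lies between 53.9 and 108 CPM in all 4 classes.

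The first comparison was between nucleus types within a library, where both types share the tissue, the pool and the chemistry. In the untreated library 7 of the 8 genes were past 2-fold higher in BA-like than in EC-like nuclei, as were 27.5% of all genes tested. In the sham library 5 of the 8 were (25.8% of all genes), and in the denervated library 7 of the 8 (25.5%), where Sqle (0.07) and Idi1 (0.79) lost that place when nuclei needed 500 detected genes. The median log2 ratio of the 8 was 2.27, 2.09 and 1.63 in these libraries, beside 0.28, 0.15 and 0.20 over all genes tested. Sqle and Idi1 in the sham library were under the 50 UMIs asked of genes tested, but are counted in the 8 and in their median. Insig1 had log2 ratios of 2.75 (2.63 to 2.88), 3.15 (2.91 to 3.39) and 2.54 (2.24 to 2.85). Lss had 3.42, 2.93 and 2.92, although only 4 to 13 UMIs stood behind its EC-like levels. Hmgcs1 had 2.32, 2.82 and 2.30, and Fdft1 2.22, 3.53 and 1.53. All 4 of these genes were therefore past 2-fold in each library.

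Srebf2 was not past 2-fold in any of the 3 libraries. Its log2 ratio of BA-like over EC-like nuclei was -0.05 (-0.24 to 0.14) in untreated, 0.37 (0.10 to 0.64) in sham and -0.25 (-0.57 to 0.09) in denervated tissue. Its level was also similar in PC-like nuclei, at 92.6, 78.2 and 80.5 CPM, and in WA-like nuclei, at 108, 61.8 and 99.2 CPM. Within each library its level thus differed by less than 2-fold between these 4 classes. Pmvk had log2 ratios of 2.53, 1.36 and 1.73, and Idi1 of 1.47, 0.62 and 1.12. Sqle had 2.19 and 1.20 in the untreated and denervated libraries and 0.00 (-1.06 to 1.09) in the sham library, where its BA-like and EC-like levels were both near 4.26 CPM.

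RNA set free from broken cells can reach every nucleus, so the adipocyte markers were also read in EC-like nuclei. The summed level of 17 adipocyte markers in EC-like nuclei was 15.1% of that in BA-like nuclei in the untreated library, 11.5% in the sham library and 17.0% in the denervated library. Single markers ranged from 2.66% to 86.3%, from 2.18% to 35.6% and from 5.08% to 94.4%, with medians of 10.1%, 5.69% and 12.7%. Insig1 in EC-like nuclei was at 14.8%, 11.3% and 17.2% of its BA-like level, close to the share of the summed markers and above the median marker in each library. With ambient RNA subtracted, an estimate that takes all adipocyte marker UMIs in EC-like nuclei as ambient, its log2 ratio of BA-like over EC-like nuclei in the untreated library went from 2.75 to 6.40, and in the sham and denervated libraries no Insig1 was left in EC-like nuclei to give a ratio. Hmgcs1 was at 19.99%, 14.1% and 20.4% and also lay within the markers' range. Srebf2, at 104%, 77.2% and 119%, was above the highest marker in all 3 libraries, and in the sham library so were Sqle at 100.2%, Idi1 at 65.1% and Pmvk at 38.9%. Endothelial markers in BA-like nuclei were at 2.70% to 3.08% of their EC-like level.

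**Figure D2:**
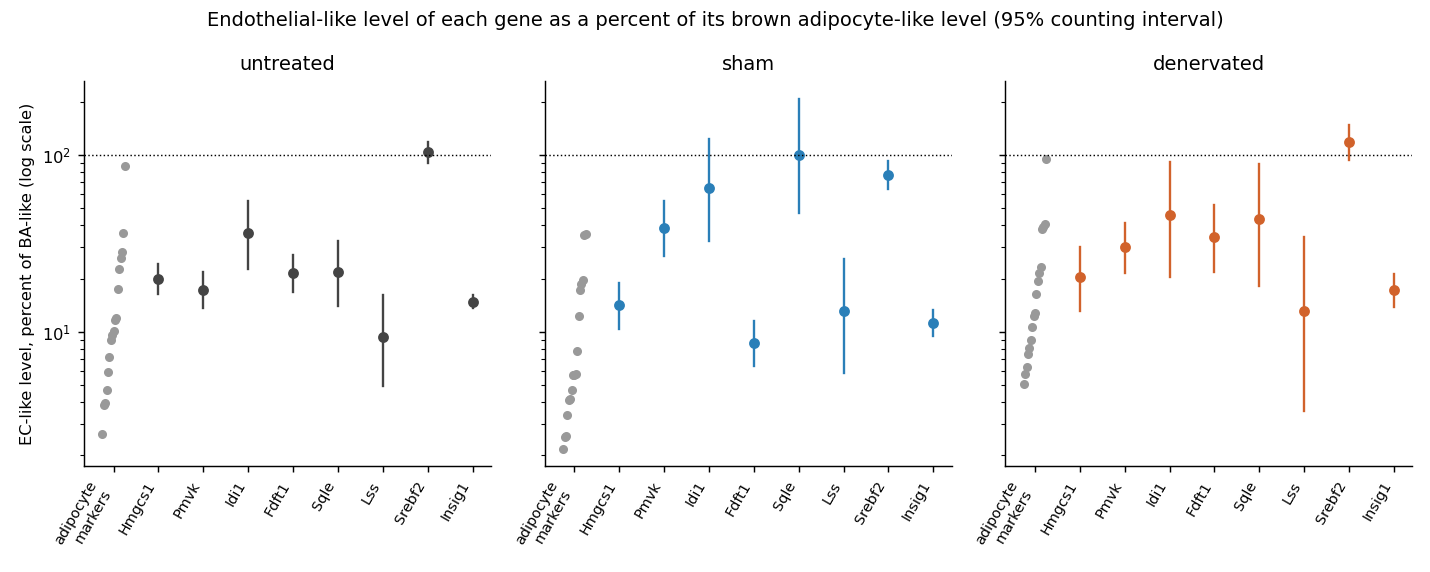
EC-like level of each gene as a percent of its BA-like level (log axis) in each library, with 95% counting intervals for the 8 genes and grey points for 17 adipocyte markers. Insig1 lies at 11.3% to 17.2%, among the markers, while Srebf2 lies at 77.2% to 119%, above all of them.

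The second comparison was between the denervated and the untreated library. Denervation reduces the sympathetic input that drives BAT. In the paper, tyrosine hydroxylase, an enzyme of sympathetic nerves, was lower but not absent in denervated lobes at day 3. In BA-like nuclei of the denervated library, Insig1 was lower than in the untreated library by a log2 ratio of -0.88 (-0.94 to -0.82) and Sqle by -0.85 (-1.20 to -0.51). Fdft1 had a log2 ratio of -0.53 (-0.71 to -0.35), Lss -0.36 (-0.64 to -0.08) and Hmgcs1 -0.32 (-0.46 to -0.19). The counting intervals of these 5 genes lay below 0. Those of Srebf2 at -0.09, Idi1 at 0.01 and Pmvk at 0.09 held 0. None of the 8 was past 2-fold, beside 5.23% of 11917 genes tested, and at that share a count of 0 says nothing particular about 8 genes. Lower past 1.5-fold were 2 of the 8, as were 7.04% of genes. The median of the 8 was -0.34 beside 0.00 over all genes. Insig1 and Sqle stood lowest by this ratio, but Sqle ranged from -1.05 to -0.10 over the 12 alternatives run.

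Depth moved with this difference. BA-like nuclei had a median of 888 UMIs in the denervated and 1820 in the untreated library, and different clusters held most of them: 2900 of 5055 denervated nuclei were in a cluster with raised heat shock genes, against 485 of 4567 untreated nuclei. The summed heat shock level was 4432 CPM in that denervated cluster and 13628 CPM in the untreated one, and with finer clusters (resolution 1) they held 1391 and 514 nuclei. When 2415 nuclei of each library were matched on UMIs per nucleus, Insig1 was at -0.54, Sqle at -0.10, Fdft1 at -0.08, Hmgcs1 at -0.11 and Lss at -0.38, and the median of the 8 at -0.11. Without the heat shock clusters Insig1 was at -0.62, Sqle at -0.32 and Fdft1 at -0.25. Insig1 was lower in the denervated library in all 12 alternatives run, from -0.94 to -0.54.

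The sham library differed more from the untreated one than the denervated library did. In its BA-like nuclei Sqle had a log2 ratio to untreated of -3.01 (-3.75 to -2.36), Pmvk -2.07 (-2.33 to -1.83), Idi1 -1.52 (-2.10 to -0.97) and Insig1 -1.32 (-1.39 to -1.25). These 4 were past 2-fold lower, as were 8.83% of 11630 genes tested, with 16.6% past 2-fold in either direction. Lss had -0.95 (-1.29 to -0.62), Hmgcs1 -0.54 (-0.68 to -0.39) and Srebf2 -0.35 (-0.55 to -0.17). Fdft1 was the only one of the 8 that was higher, at 0.79 (0.65 to 0.93), so that within the branch to squalene and beyond, neighbouring steps stood in opposite directions. Each of the 8 kept its direction in all 12 alternatives run. Mitochondrial UMIs were 12.9% of the sham library, against 6.71% of the untreated and 2.95% of the denervated library, and the median of the 8, at -1.14, was at -1.09 without mitochondrial UMIs in the totals and at -1.10 in nuclei with at most 10% of them. No gene with at least 50 UMIs in both other tables was missing from the sham table. That does not show that its counts were made in the same way, and its pipeline version and build are not known here.

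Set against the sham library, the denervated library gave another picture. Pmvk had a log2 ratio of denervated over sham of 2.16 (1.91 to 2.43), Sqle 2.16 (1.46 to 2.94) and Idi1 1.53 (0.95 to 2.14), and these 3 were past 2-fold higher, as were 11.6% of 11228 genes. Fdft1, at -1.32 (-1.50 to -1.14), was past 2-fold lower, as were 8.46% of genes. Insig1 was at 0.45 (0.36 to 0.53), the opposite direction to its ratio to the untreated library, and ranged from 0.19 to 0.85 over the 12 alternatives, with the highest value without the heat shock clusters. The direction given for denervation thus depends, for Insig1, Sqle, Hmgcs1 and Lss, on which of the 2 single libraries it is set against. Both comparisons share the denervated library.

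**Figure D3:**
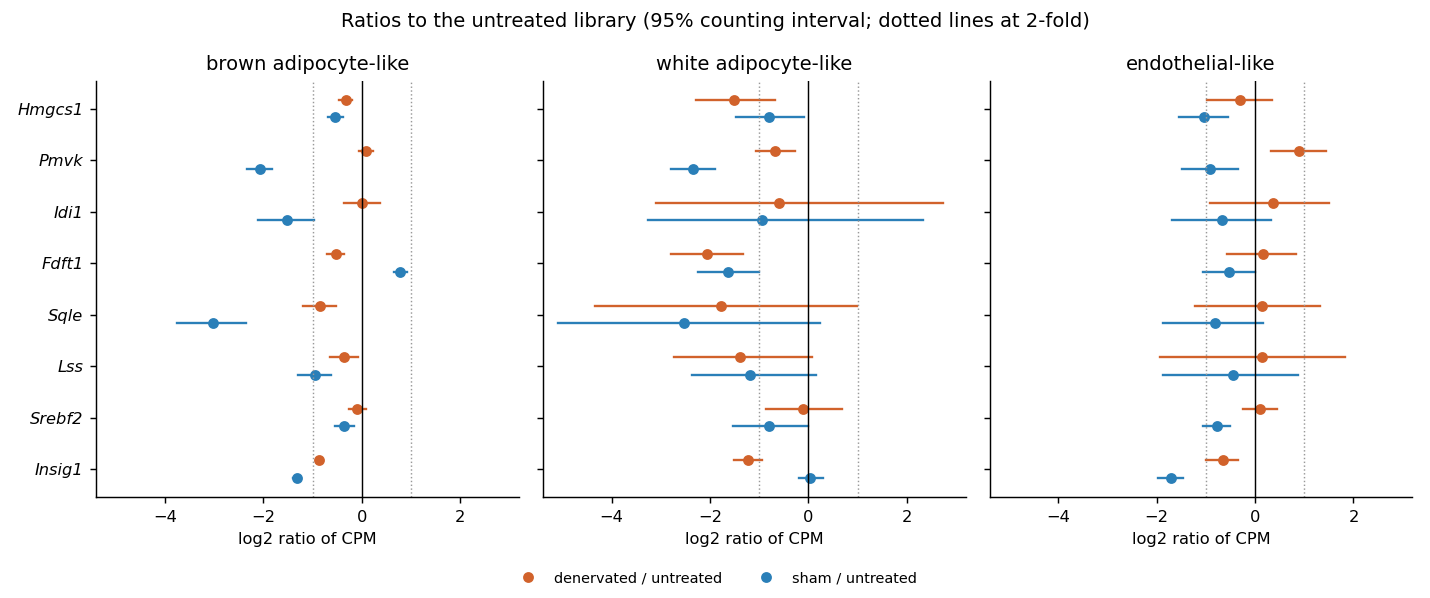
Log2 ratios of CPM (x axis) of the 8 genes in the denervated and the sham library over the untreated library, within BA-like, white adipocyte-like and endothelial-like nuclei, with lines for 95% counting intervals and dotted lines at 2-fold. In BA-like nuclei the denervated points lie between -0.88 and 0.09, and the sham points between -3.01 and 0.79.

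In WA-like nuclei Insig1 was at 884 CPM in untreated, 909 CPM in sham and 377 CPM in denervated tissue, above its BA-like level in the sham library and below it in the untreated and denervated ones. The log2 ratio of WA-like over BA-like nuclei was -0.26 (-0.50 to -0.03), 1.10 (0.996 to 1.20) and -0.62 (-0.79 to -0.45). Sham over untreated, Insig1 in WA-like nuclei had a log2 ratio of 0.04, from -0.69 to 0.14 over 8 alternatives, so the sham library, lowest in BA-like nuclei, was level with the untreated one here. Pmvk was higher in WA-like than in BA-like nuclei in all 3 libraries, at 413, 80.9 and 258 CPM, with log2 ratios of 1.61 (1.25 to 1.95), 1.33 (0.96 to 1.69) and 0.84 (0.61 to 1.06). Past 2-fold in either direction between these classes were 39.2%, 24% and 32.7% of all genes tested. Fdft1 was at 181, 58.1 and 43.4 CPM in WA-like nuclei, so that it was above its BA-like level in the untreated library and below it in the sham and denervated ones. Denervated over untreated, 3 of the 5 members with at least 50 UMIs in WA-like nuclei were past 2-fold lower (3.71% of 3720 genes): Insig1 at -1.23 (-1.51 to -0.94), Hmgcs1 at -1.51 (-2.30 to -0.69) and Fdft1 at -2.06 (-2.80 to -1.32). Matched on UMIs per nucleus, Hmgcs1 was at -0.45 and no longer past 2-fold. With nuclei typed by their own marker UMIs none of these 3 was, with Insig1 at -0.89, Hmgcs1 at -0.83 and Fdft1 at -0.65. The untreated values rest on 127 nuclei, in which Hmgcs1 had 23 UMIs and Fdft1 32. The WA-like clusters also differed in heat shock genes, whose summed level was 7958 CPM in the untreated, 18023 CPM in the sham and 8766 CPM in the denervated library, and their part in these ratios was not tested.

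Among EC-like nuclei, 2 of the 5 members with at least 50 UMIs were past 2-fold lower in the sham than in the untreated library (2.95% of 9990 genes), Insig1 at -1.72 (-1.98 to -1.46) and Hmgcs1 at -1.04 (-1.55 to -0.55), which reached -0.75 when nuclei needed 500 detected genes. Both genes were within the range of the adipocyte markers in these nuclei. Srebf2, which was above that level, had -0.78 (-1.05 to -0.51) for sham over untreated and 0.11 (-0.24 to 0.44) for denervated over untreated. In PC-like nuclei Insig1 was at 132, 31.7 and 102 CPM. Sqle had 0 UMIs in denervated PC-like nuclei, which allows up to 9.89 CPM, and Pmvk had 0 UMIs in immune-like nuclei of all 3 libraries, which allows up to 24.7 to 65.1 CPM there.

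Within BA-like nuclei the members also differed between clusters, and the direction was not the same in each library. The heat shock clusters set side by side were not alike. Their summed heat shock level was 13628 CPM in the untreated, 13201 CPM in the sham and 4432 CPM in the denervated library. At resolution 1 the denervated heat shock cluster held 1391 nuclei, at 7911 CPM. The ratios below are therefore not those of 1 state across libraries. In the denervated library the cluster with raised heat shock genes (2900 nuclei, median 690 UMIs) held Insig1 at 416 CPM and Sqle at 5.37 CPM, against 687 and 28.3 CPM in the other cluster (2155 nuclei, median 1359 UMIs). The log2 ratios were -0.72 (-0.84 to -0.61) for Insig1, -2.40 (-3.46 to -1.49) for Sqle, -0.91 (-1.26 to -0.57) for Fdft1, -0.72 (-1.38 to -0.08) for Idi1 and -0.41 (-0.66 to -0.18) for Hmgcs1. Lss was at -0.33 (-0.82 to 0.16), and the median of all genes tested was -0.04. Of the 8, 1 was past 2-fold beside 4.7% of all genes. In the sham library the heat shock cluster instead held more Insig1, 631 against 380 CPM, a log2 ratio of 0.73 (0.58 to 0.88). Hmgcs1 was at 0.34 (0.02 to 0.65) and Fdft1 at -0.68 (-0.998 to -0.37), and none of the 6 members with at least 50 UMIs was past 2-fold beside 6.93% of genes. In the untreated library Insig1 was level between the heat shock cluster and the other clusters pooled, at 1089 and 1059 CPM. Those other clusters were not alike. Insig1 was at 1074 CPM (1051 to 1098) in the cluster of 3634 nuclei (median 1990.5 UMIs). It was at 680 CPM (592 to 778) in the shallower cluster of 448 nuclei (median 651 UMIs). Pmvk in the untreated library was at 256 against 127 CPM, a log2 ratio of 1.01 (0.75 to 1.27), 1 of the 8 past 2-fold beside 15.1% of genes. Pmvk was higher in the heat shock cluster of each library, by 0.72 (0.16 to 1.26) in sham and 0.34 (0.13 to 0.55) in denervated tissue. Srebf2 was level in all 3, from -0.08 to 0.07. The clusters were not matched for depth, and the part of depth in these ratios was not tested.

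**Figure D4:**
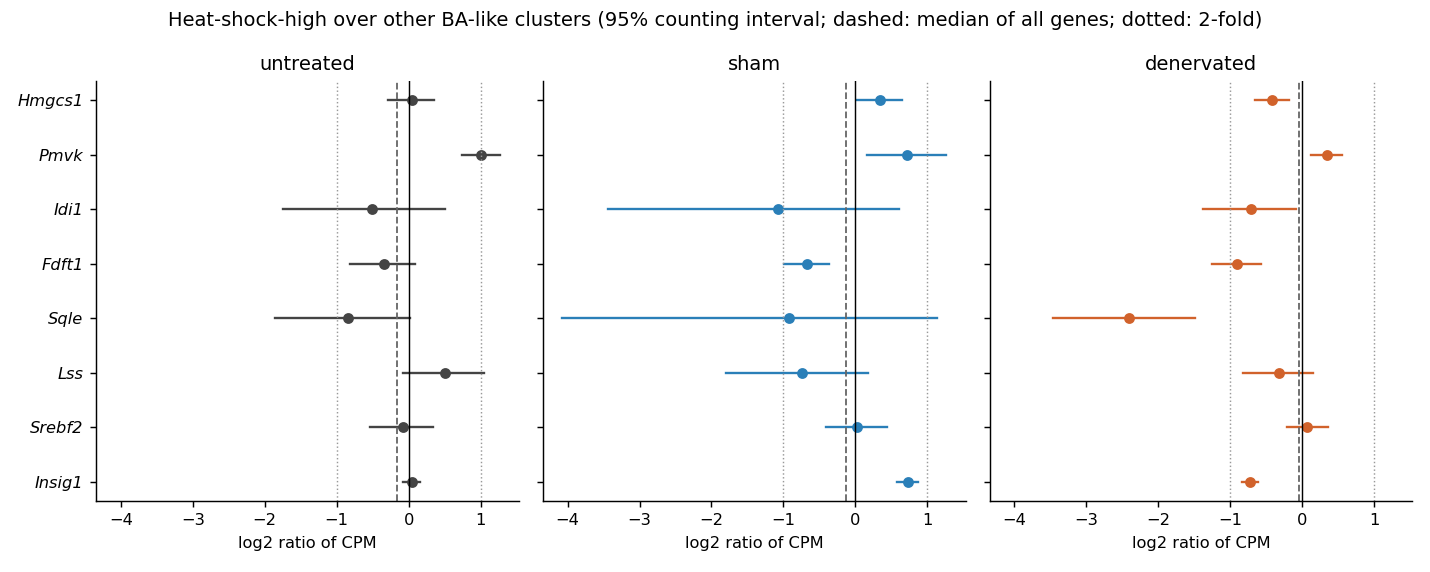
Log2 ratio of CPM (x axis) of each gene in the BA-like cluster with raised heat shock genes over the other BA-like clusters of the same library, with 95% counting intervals, the median of all genes dashed and 2-fold dotted. Insig1 is at 0.04 in the untreated, 0.73 in the sham and -0.72 in the denervated library, while Pmvk is above 0 in all 3. The summed heat shock level of these clusters was 13628, 13201 and 4432 CPM in the same order.

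The members were also compared between single nuclei. BA-like nuclei thinned to 1000 UMIs were split by whether they held an Insig1 UMI, 2257 against 1673 in the untreated, 754 against 1776 in the sham and 880 against 1193 in the denervated library. Nuclei with fewer UMIs were left out, from totals of 4567, 3301 and 5055 BA-like nuclei in the same order. In 17 of the 21 comparisons of the other 7 members there were at least 50 UMIs, and in all 17 the counting interval held 0. The other 4, Sqle and Idi1 in the sham and denervated libraries, rested on 8 to 44 UMIs and are not read. By how near its interval came to clearing 0, Sqle in the untreated library was nearest to a difference. It had 87 UMIs in nuclei with Insig1 and 45 in nuclei without, a log2 ratio of 0.52 (-0.01 to 1.07). Pmvk in the sham library had a larger ratio with a wider interval, 0.60 (-0.15 to 1.33). Past 2-fold were 0.325%, 0.858% and 0.357% of all genes. At this depth, and in these deeper nuclei only, no difference was detectable for the members read.

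The rest of the pathway was read in BA-like nuclei from the list of 46 genes, of which 44 were analysed here and Fdps was not. Denervated over untreated, none of the 20 synthesis enzymes measured was past 2-fold, beside 5.23% of all genes. A ratio below 0 was found for 16 of 20, with a median of -0.35 beside 0.00 over all genes. No value matched on UMIs per nucleus is given for the 20, and matching took the median of the 8 members from -0.34 to -0.11. Cyp51, lanosterol demethylase, was at 106 CPM in untreated, 16.2 CPM in sham and 83.6 CPM in denervated nuclei. The order of the libraries was thus that of Insig1, Sqle and Lss, with the sham library lowest. Sham over untreated, 10 of the 20 enzymes were past 2-fold lower, beside 8.83% of all genes, and none higher. Their median was -1.07 beside -0.04 over all genes. Set against the sham library, 8 enzymes were higher in the denervated library past 2-fold, beside 11.6% of all genes, among them Mvd at 3.13, Cyp51 at 2.37, Hsd17b7 at 2.08, Mvk at 1.22 and Sc5d at 1.09, and Fdft1 and Ggps1 (-1.03) were lower, beside 8.46% of all genes.

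Of the regulators beside Srebf2 and Insig1, Srebf1, which also encodes the fatty acid regulator SREBP-1c, was at 659 CPM in untreated, 199 CPM in sham and 675 CPM in denervated BA-like nuclei, a log2 ratio of denervated over sham of 1.76 (1.66 to 1.87). Insig2, the relative of Insig1, was at 40.2, 35.8 and 28.1 CPM, and Scap, the escort of SREBPs, at 32.8, 37.5 and 33.8 CPM. Of 10 uptake and lysosomal genes measured, none was past 2-fold between the denervated and untreated libraries, and at 5.23% of all genes a count of 0 says nothing particular about so few. The receptors Lrp1, at 40.4, 275 and 73.0 CPM, and Vldlr, at 119, 260 and 100 CPM, stood highest in the sham library, and so did Nr1h2 (liver X receptor beta) at 33.0, 62.4 and 26.6 CPM. Abca1, which exports cholesterol, was at 200.2, 157 and 204 CPM, and none of the 6 efflux and storage genes measured was past 2-fold between the denervated and untreated libraries, which is likewise read as no result.

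Outside the list, the genes whose level followed the summed level of the 8 most closely over 15 points (5 classes in 3 libraries) were Elovl6 with a Pearson r of 0.96, Aacs with 0.96, Dgat2 with 0.96, Smoc1 with 0.95 and Me1 with 0.95. Insig1 alone had 0.97 with the sum that it dominates, Hmgcs1 had 0.69 and Srebf2 0.20. Points of 1 library share depth and free RNA, and the contrast between adipocyte and other classes enters each r, so these values are descriptions. Elovl6, a fatty acid elongase, was at 1362 CPM in untreated, 777 CPM in sham and 914 CPM in denervated BA-like nuclei. Me1, malic enzyme, which makes NADPH for lipid synthesis, was at 951, 197 and 704 CPM. Aacs, which turns acetoacetate into acetoacetyl-CoA for lipid synthesis, was at 623, 358 and 518 CPM. Dgat2, which makes triglycerides, was at 937, 835 and 762 CPM, and Smoc1, a secreted calcium-binding protein, at 333, 132 and 332 CPM. The untreated library stood highest and the sham library lowest for Elovl6, Me1 and Aacs, as for Insig1, whereas Dgat2 was lowest in the denervated library and Smoc1 was level between the untreated and denervated ones. These genes were picked by their correlation over points that include these levels. An order shared with Insig1 is therefore not separate evidence.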

How the data were processed

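Single-nucleus RNA-seq was analysed in 3 libraries of mouse BAT, 1 each labelled as non-treatment, sham operation and denervation. The authors deposited counts of UMIs, nuclei in rows and genes in columns, made for the untreated and denervated libraries with the BD Rhapsody WTA Analysis Pipeline 1.9 (nuclei) on GRCm38 and GENCODE M19, per the file headers. The submitters' processing notes name Seurat 4.0.6 and a human build, GRCh38, although the gene symbols are those of mouse. The sham table has no such header, and its pipeline version and build are not given in the sources used here. The paper states in general that its raw reads went through the standard Rhapsody pipeline.

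Barcodes with under 200 genes or over 50% mitochondrial UMIs were left out, and 911 to 2267 nuclei per library were removed as doublets because markers of 2 cell types each had 3 or more UMIs, with the lesser sum at 25% or more of the greater. Each library was clustered alone (2000 variable genes, 30 components, 20 neighbours, Louvain at resolution 0.5, igraph 0.11.9, scikit-learn 1.9.0) without the 46 pathway genes and mitochondrial genes, and adipocyte clusters were clustered again. A cluster took the name of its best marker list with at least 3 markers raised, and stayed unnamed where another list reached 60% of that score. For the adipocyte clusters that were clustered again, the brown and white adipocyte lists did not count against each other. Such a cluster also stayed unnamed where its endothelial markers were at least 3 times those of the lowest adipocyte cluster. This naming rule was set after the clusters were seen. Clusters with a heat shock list at least 3 times that of the lowest BA-like cluster were called heat shock clusters.

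UMIs were summed per class and library and scaled to 1000000 UMIs (CPM), with exact Poisson intervals, and ratios with conditional binomial intervals (95%, scipy 1.17.1). Genes needed 50 UMIs over both groups, and 2-fold was the size that counted. Intervals cover counting error only, and with 1 library per condition no p-value was computed. Members and gene lists were chosen with earlier results of these data known. Named beyond the 8 were Fdps, Cyp51, Insig2 and Abca1 (other genes that the rule names are not reported here), list genes past 2-fold between the denervated and the untreated or sham library, and the 5 genes of highest correlation on log2(CPM + 1); Scap was added after its values were seen. The steps were tested on simulated counts, drawn from the Poisson model that the intervals assume. For denervated over untreated, the right sign was found for 100% of the 200 changed genes. Intervals were checked for only a part of the 11651 genes tested, and 95% of those held the truth.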

Additional observations from a re-analysis of the deposited data

Results flagged for a closer look

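Between WA-like and BA-like nuclei 3 ratios stood in opposite directions with both counting intervals clear of 0, and the difference between the classes was not tested in any of them. Fdft1, sham over untreated, had a log2 ratio of -1.64 (-2.25 to -1.002) in WA-like and 0.79 (0.65 to 0.93) in BA-like nuclei. Insig1, denervated over sham, had -1.27 (-1.46 to -1.09) in WA-like and 0.45 (0.36 to 0.53) in BA-like nuclei. Hmgcs1, denervated over sham, had -0.69 (-1.28 to -0.14) in WA-like and 0.21 (0.04 to 0.38) in BA-like nuclei. Typed by their own marker UMIs, Fdft1 was at 0.0148 and Hmgcs1 at 0.17 in WA-like nuclei, so that neither then stood in opposite directions, and Insig1 was at -0.21. In levels, Fdft1 in WA-like nuclei rested on 32 UMIs in the untreated, 79 in the sham and 35 in the denervated library, whereas Insig1 rested on 156, 1236 and 304.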

How the results depend on the processing

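Of 93 values of the main comparisons under the alternatives, 78 moved by less than their counting interval (for counts of members, by at most 1.5 times) and 15 by more. None of the median log2 ratios among them changed direction. The summed levels, counts and shares among the 93 have no direction to change. Matching nuclei on UMIs brought the median of the 8 genes, denervated over untreated in BA-like nuclei, from -0.34 to -0.11, and the 1.5-fold limit took the count of members past it from 0 to 2. At least 200 UMIs took the count past 2-fold, denervated over sham, from 4 to 2, since fewer genes were tested. Subtracting ambient RNA raised the median of BA-like over EC-like nuclei to 3.69 in the untreated, 2.99 in the sham and 2.54 in the denervated library. Members left with no UMIs in EC-like nuclei, Lss in the untreated, Insig1 in the sham and both in the denervated library, entered these medians at the lower bound of their interval. The summed level of the 8 in untreated BA-like nuclei was 1697 CPM without mitochondrial UMIs in the total, 1566 CPM as a mean over nuclei and 1689 CPM with ambient RNA subtracted. The share of BA-like nuclei with a UMI of any of the 8 was 51.2%, 31.4% and 37.2% (untreated, sham, denervated) after thinning to 500 UMIs, 67.4%, 45.0% and 52.7% at 800 UMIs, and 83.7%, 58.3% and 53.7% without thinning. Of 1577 other values 46 changed sign, 45 of them from a main ratio under 2-fold, such as Pmvk, sham over untreated in EC-like nuclei, from -0.91 to 0.92, and Hmgcs1, denervated over sham there, from 0.74 to -0.88. The other was Fdft1, sham over untreated in WA-like nuclei, which was at 0.0148 when nuclei were typed by their own marker UMIs, and the cause was not tested. Subtracting ambient RNA left no value for the median ratio of the denervated library to either other library in EC-like nuclei. No paired analysis was possible because each condition was 1 library. Depth limits Sqle, Idi1 and Lss outside BA-like nuclei to 27 or fewer UMIs a class and library.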
